A study of Mus musculus with 16 samples.

Results

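The 38 genes described here encode the transporters that bring glucose into the cell and carry lactate out of it, the enzymes of glycolysis, and the kinases and core subunits that set how much pyruvate enters the mitochondria. They were taken from a list of the pathway by symbol, through the Entrez gene IDs of the count table. All 38 were found among its 27179 gene IDs, and all 38 passed the filter on low counts that left 15785 genes for testing. Hk3 passed only through the groups where it was high. They serve 18 steps, of which 12 have several members and 6 have 1.

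Glycolysis splits glucose into pyruvate in the cytosol and yields ATP without oxygen. Most of its steps can be run by several isoenzymes, each from its own gene, that differ in the tissues that use them. Pyruvate is then either reduced to lactate and exported with a proton, or admitted to the mitochondria by pyruvate dehydrogenase, which the pyruvate dehydrogenase kinases switch off. The early embryonic heart is known to depend on glycolysis and lactate before it turns to fatty acids around birth, and many of these genes are textbook targets of the hypoxia-inducible factors.

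RNA was sequenced from 16 whole hearts of mouse embryos at embryonic day 10.5, 4 of each of 4 genotypes and from 7 litters. The study asked what is lost in the heart when alleles of Ing4 and Ing5 are removed, a pair of genes whose products belong to histone acetyltransferase complexes. The genotypes were Ing4+/- Ing5-/- (the compound mutant, which lacks 3 of the 4 alleles), Ing4+/+ Ing5-/- (Ing5-/- in what follows), Ing4+/- Ing5+/+ (Ing4+/-) and Ing4+/+ Ing5+/+ (wild type). Every heart of the compound mutant and Ing5-/- groups lacked both Ing5 alleles, and every heart of the compound mutant and Ing4+/- groups carried 1 Ing4 allele. The labels name no Cre driver, so the whole heart is taken to carry the genotype, and they give no sex or strain. Compound mutants 1 to 4 came from litters 1, 4, 6 and 7, Ing4+/- hearts from litters 3, 4, 6 and 7, Ing5-/- hearts from litters 1, 1, 2 and 7 and wild-type hearts from litters 4, 5, 5 and 6. No litter held both an Ing5-/- and a wild-type heart, so litter and genotype cannot be told apart in that comparison.

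Libraries held 19753100 to 35664331 counted reads. Levels are given as CPM, a gene's reads per fixed number of library reads after TMM scaling for composition. Ing5 lay at 19.2 to 25.1 CPM in compound mutants and at 18.5 to 29.3 in Ing5-/- hearts, against 33.8 to 42.3 in Ing4+/- and 28.9 to 36.9 in wild-type hearts. The highest Ing5-/- value, in heart 1, thus lay inside the wild-type range. Ing4 lay at 32.5 to 36.2 CPM in compound mutants and at 32 to 36.3 in Ing4+/- hearts, against 43.5 to 60.7 in Ing5-/- and 28.2 to 44.4 in wild-type hearts. The library labelled wild type 2 had the lowest value of all 16 (28.2), so it went against its label for this gene. Ing4+/- 4, Ing5-/- 1 and compound mutant 2 were named as standing apart and left out of an alternative fit. The choice rested on no stated cut-off. In chi-square per degree of freedom against hearts of the same genotype, Ing4+/- 4 (26.2 to 26.8) lay no further out than Ing4+/- 3 (26.8 to 31.1). Ing5-/- 4, which was kept, had 57.9 to 108, against 50.2 to 77.1 for compound mutant 2. Summed CPM of 10 cardiomyocyte markers was 26400 to 30300 in compound mutants, 18900 to 32000 in Ing5-/-, 26300 to 28100 in Ing4+/- and 29400 to 30900 in wild-type hearts, so every library held abundant cardiomyocyte RNA. Summed CPM of 6 endoderm and liver bud markers reached 20.1 in Ing5-/- and 15.7 in Ing4+/- hearts, against 2.44 in compound mutants and 2.46 in wild type. That of 6 neuron and neural crest markers was 20.5 to 26.3 in compound mutants, 25.7 to 37.9 in Ing5-/-, 26.1 to 30.9 in Ing4+/- and 26.6 to 36.9 in wild-type hearts. The part of these cells in the members' values was not tested. In RNA from whole hearts, fewer cells of a type and less RNA per cell cannot be told apart.

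Promoters are printed for Pgk1, Ldha and Pdk1, which were higher in compound mutants, and for Ldhb, the partner of Ldha, which was not called. ACGTG and GCGTG are the 2 forms of the core of the site of the hypoxia-inducible factors. Each line is the 250 bases before an annotated start, from RefSeq on GRCm38.p6 (the mm10 build), 5′ to 3′ along the gene's own strand, with ACGTG on either strand in capitals. Pgk1 lies at chrX:106186850-106187099 (plus strand), Ldha at chr7:46845554-46845803 (plus), Pdk1 at chr2:71872974-71873223 (plus) and Ldhb at chr6:142507958-142508207 (minus).
Pgk1: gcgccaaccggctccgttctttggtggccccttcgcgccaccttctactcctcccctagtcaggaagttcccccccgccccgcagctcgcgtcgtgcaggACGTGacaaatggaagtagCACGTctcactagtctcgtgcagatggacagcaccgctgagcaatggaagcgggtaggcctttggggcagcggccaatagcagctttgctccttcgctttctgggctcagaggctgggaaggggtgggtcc
Ldha: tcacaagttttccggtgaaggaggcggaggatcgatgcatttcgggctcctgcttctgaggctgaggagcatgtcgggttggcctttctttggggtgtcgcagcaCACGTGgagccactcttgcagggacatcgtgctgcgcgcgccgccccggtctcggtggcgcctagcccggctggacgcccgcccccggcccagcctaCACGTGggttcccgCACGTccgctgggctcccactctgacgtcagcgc
Pdk1: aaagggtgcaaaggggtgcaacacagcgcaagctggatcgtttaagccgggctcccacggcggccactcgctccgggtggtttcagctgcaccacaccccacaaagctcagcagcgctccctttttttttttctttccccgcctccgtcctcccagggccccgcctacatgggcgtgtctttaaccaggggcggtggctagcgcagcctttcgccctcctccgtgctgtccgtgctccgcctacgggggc
Ldhb: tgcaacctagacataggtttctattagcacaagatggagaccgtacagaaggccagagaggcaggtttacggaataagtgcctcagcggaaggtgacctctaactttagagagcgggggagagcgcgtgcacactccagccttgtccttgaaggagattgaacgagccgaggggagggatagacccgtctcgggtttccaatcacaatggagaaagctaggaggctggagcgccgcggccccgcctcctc

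The Ldha window held ACGTG at 5 positions, of which 4 came from 2 copies of CACGTG, since that palindrome reads ACGTG on both strands. The Pgk1 window held it at 2 positions, starting 150 and 131 bases before the start. The Pdk1 and Ldhb windows held no ACGTG but 1 GCGTG each, which the Pgk1 and Ldha windows lacked. Ldha has a second annotated start, whose window (chr7:46846832-46847081) held no ACGTG and 1 GCGTG, and the second window of Pdk1 held neither. Of the 36 members with such a window (all but Slc2a3 and Slc2a4), 18 (50%) had ACGTG in at least 1, against 18.5% of 27025 genes and 24.4% of the 11871 tested genes that had a window. GCGTG stood in 61.1% of the members and 30.9% of all genes, and CACGTG in 16.7% and 6.86%. These were not counted over the tested genes alone. The 36 members had 55 windows and the 27025 genes 32851, so members had more windows each, which raises their share. Among members higher in compound mutants than in Ing4+/- hearts 4 of 9 had ACGTG, and among the others 14 of 27. A match describes the letters of the window and is not a bound site.

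Compound mutant hearts carried more glycolytic RNA than wild-type hearts. The 38 members took 1.58 ± 0.12% of all counted reads in compound mutants, 1.40 ± 0.28% in Ing5-/-, 1.21 ± 0.02% in Ing4+/- and 1.27 ± 0.06% in wild-type hearts (mean ± SD, n = 4 each). The lowest compound mutant (1.47%) was above the highest wild-type heart (1.35%). The Ing5-/- hearts spanned 1.08% in heart 1 to 1.76% in heart 3, so they overlapped every other group.

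**Figure D1:**
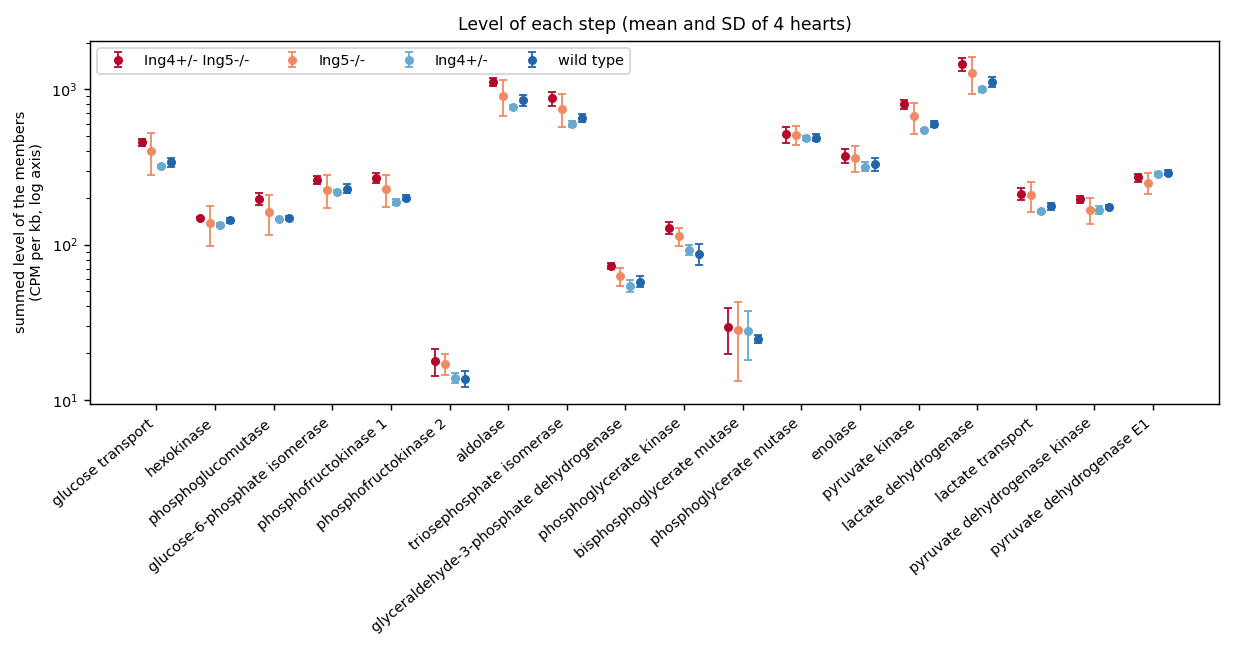
Summed level of the members of each step, in TMM-scaled CPM per kb of gene length on a log axis, as mean (point) and SD (bar) of 4 hearts per genotype. Lactate dehydrogenase was the highest step and phosphofructokinase 2 the lowest of all in wild-type hearts (1122 and 13.7 CPM per kb), and the compound mutant mean lay above the wild-type mean at every step but pyruvate dehydrogenase E1.

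Per kb of gene length, lactate dehydrogenase led with 1455 ± 134 CPM per kb in compound mutants and 1122 ± 85 in wild-type hearts. Aldolase followed with 1116 ± 68 and 849 ± 70, then triosephosphate isomerase with 875 ± 90 and 655 ± 41 and pyruvate kinase with 801 ± 54 and 598 ± 26. Phosphofructokinase 2, which makes a regulator and not a glycolytic intermediate, lay lowest at 17.8 ± 3.5 and 13.7 ± 1.6. Genes with near-identical copies elsewhere can lose reads in counting, so their levels are uncertain: of the 50-base words of Pgk1 68% occur in other annotated genes, of Gapdh 58.4%, of Eno1 49.5%, of Pgam1 41.5%, of Pdhb 30.3% and of Pkm 23.7%.

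The compound mutant was compared with wild type with edgeR's quasi-likelihood test over all 15785 genes, and genes are named as called below where the Benjamini-Hochberg adjusted p was under 0.05. The 5 members Aldoc, Slc2a3, Eno2, Pdk1 and Pgk1 rose and none fell. Over all genes tested, 0.697% were called higher and 0.158% lower. With litter as a block only the Aldoc call was kept (adjusted p = 0.0224), and the adjusted p was 0.242 for Slc2a3, 0.276 for Eno2, 0.391 for Pdk1 and 0.456 for Pgk1. The median log2 fold change of the 38 members was 0.35, with quartiles of 0.14 and 0.44, against 0.00 over all genes. It was above 0 for 29 of 38 members and for 50.8% of all genes. At an unadjusted p under 0.05, 23 members were higher and none lower, against 6.4 and 4.95% of all genes. In 21 members every compound mutant heart lay above every wild-type heart, a pattern that 5.45% of all genes showed, and in 1 member, Pdha1, every one lay below (4.71% of all genes). The comparison with Ing4+/- hearts, which differ from the compound mutant by Ing5 alone, called 10 members higher and none lower: Aldoc, Pfkl, Pdk1, Slc2a3, Tpi1, Gapdh, Ldha, Pkm, Pgk1 and Slc16a3 (0.76% of all genes called higher, 0.399% lower). With litter as a block 5 of the 10 calls were lost, at an adjusted p of 0.0515 for Pdk1, 0.0698 for Pkm, 0.0832 for Tpi1 and Ldha and 0.129 for Pgk1. The median over members was 0.38, against -0.00 over all genes, and 31 of 38 were above 0 (49.7% of all genes). At an unadjusted p under 0.05, 21 members were higher and none lower, against 7.18 and 6.73% of all genes, and in 19 members every compound mutant lay above every Ing4+/- heart while none lay wholly below (5.22 and 4.88% of all genes). Both comparisons share the compound mutant hearts, so they are not independent of each other.

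**Figure D2:**
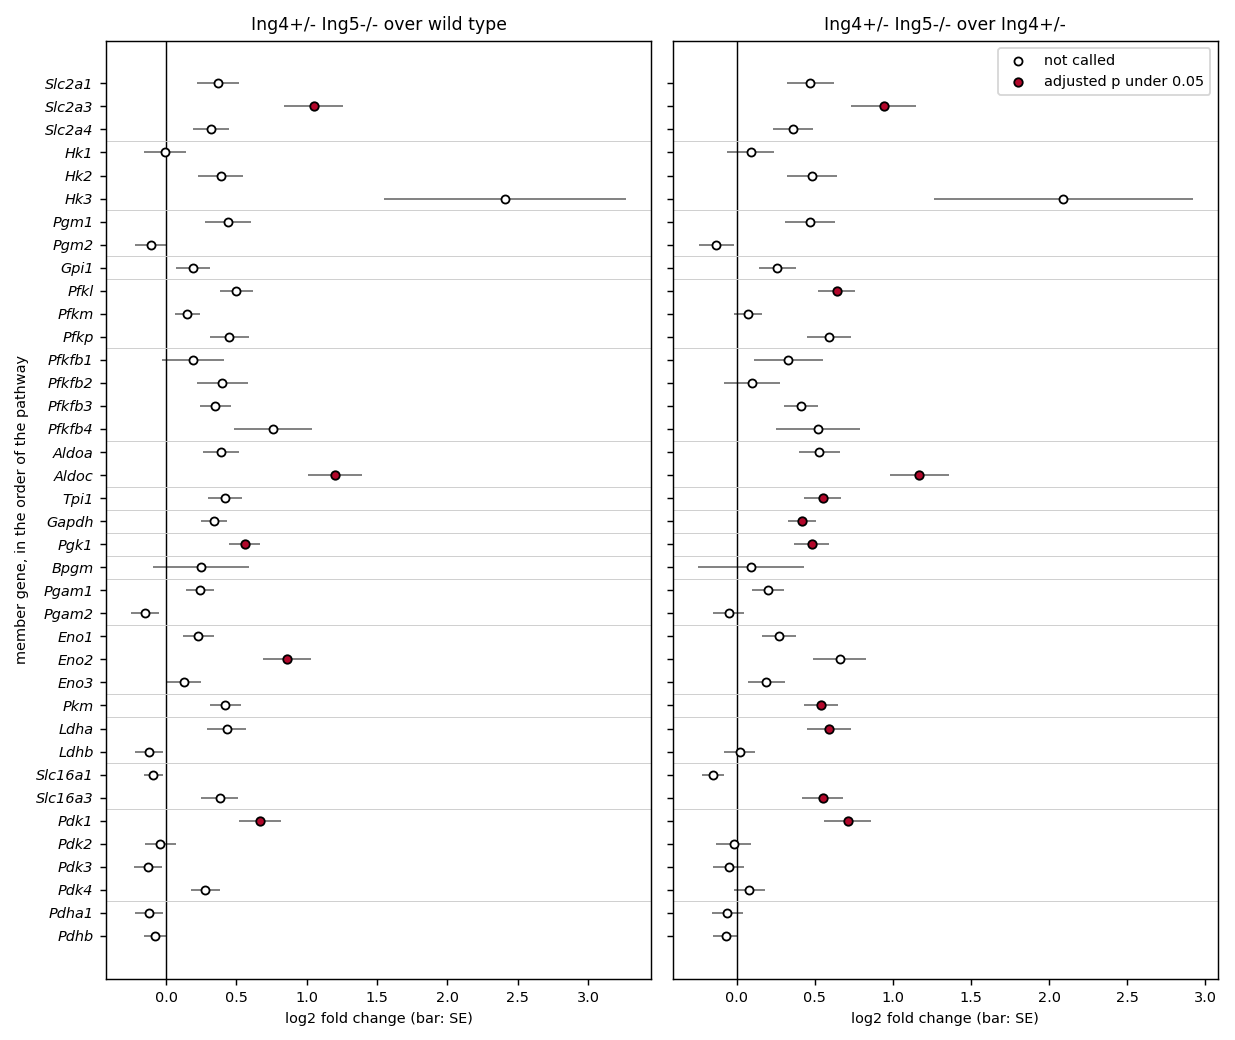
Log2 fold change (point) and its standard error (bar) of each of the 38 members, in the order of the pathway with lines between steps, for compound mutant over wild type (left) and over Ing4+/- (right); filled points passed an adjusted p of 0.05. The filled points all lie right of 0, 5 on the left and 10 on the right, and Hk3 has the widest error (0.86 on the left).

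Glucose enters through facilitative transporters. Slc2a1 encodes GLUT1, the main carrier of the embryo, and Slc2a3 (gene ID 20527, chr6:122727809-122802363) encodes GLUT3, a carrier of high affinity best known from neurons. Slc2a3 had 174, 244, 129 and 202 CPM in compound mutants and 109, 131, 222 and 146 in Ing5-/- hearts, against 92.7, 93.6, 90.7 and 114 in Ing4+/- and 90.9, 81.7, 84.8 and 104 in wild-type hearts. All 8 hearts without Ing5, bar Ing5-/- 1 against Ing4+/- 4, lay above all 8 with it. Slc2a3 rose by 1.05 ± 0.21 over wild type (log2 fold change ± SE, adjusted p = 0.0323, 2.07-fold) and by 0.94 ± 0.21 over Ing4+/- (adjusted p = 0.0495). Both calls were fragile: that over wild type was lost without compound mutant 1, 2 or 4 or any wild-type heart (adjusted p up to 0.126), and that over Ing4+/- without any heart but compound mutant 3 or Ing5-/- 1 or 3 (up to 0.143).

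Slc2a1 had 1045, 1018, 976 and 1068 CPM in compound mutants and 598.5, 830.5, 1277 and 963 in Ing5-/- hearts, against 727, 725, 766 and 743 in Ing4+/- and 708.5, 836, 793 and 832 in wild-type hearts. The compound mutants lay above all Ing4+/- and all wild-type hearts, but the differences of 0.47 ± 0.15 and 0.37 ± 0.15 did not pass (adjusted p = 0.132 and 0.317). Slc2a4, which encodes the insulin-regulated GLUT4 of adult heart and muscle, averaged 28.0 ± 1.8 CPM in compound mutants and 22.4 ± 3.3 in wild-type hearts (0.32 ± 0.13, adjusted p = 0.336). Per kb, Slc2a1 held most of the step and Slc2a3 the next largest share. Slc2a3 made up 10.3% of the step in compound mutants and 9.53% in Ing5-/-, against 7.71% in Ing4+/- and 6.76% in wild-type hearts.

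Hexokinases trap glucose as glucose-6-phosphate. Hk1, the housekeeping form, had 569, 537, 566.5 and 537.5 CPM in compound mutants and 297, 582, 629.9 and 561 in Ing5-/- hearts, against 535, 505, 541 and 499 in Ing4+/- and 521, 569, 559 and 571 in wild-type hearts. The compound mutant and wild-type hearts overlapped fully, with a log2 difference of -0.01 ± 0.15 and a 95% interval of -0.30 to 0.29. Hk2, the inducible form of muscle, averaged 145 ± 13 CPM in compound mutants and 111 ± 6 in wild-type hearts without overlap between them (0.39 ± 0.16, adjusted p = 0.343). Hk3, known from myeloid cells, was near the limit of detection at 0.779 ± 0.640 and 0.136 ± 0.094 CPM (2.41 ± 0.86, adjusted p = 0.251). It averaged 0.75 ± 0.66 CPM in Ing5-/- and 0.18 ± 0.15 in Ing4+/- hearts, so it passed the filter through hearts without Ing5. In fits of only the groups compared, 37 members passed wherever wild-type or Ing4+/- hearts took part. The difference of Hk3 is thus no evidence, though it enters the counts and medians over members.

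Phosphoglucomutase links glucose-6-phosphate to glycogen. Pgm1 had 483, 425, 382 and 459 CPM in compound mutants and 216, 339.9, 491 and 369 in Ing5-/- hearts, against 312, 309, 320.1 and 319 in Ing4+/- and 318, 331, 322 and 314 in wild-type hearts. The wild-type and Ing4+/- hearts lay close together and the compound mutants above both, yet 0.44 ± 0.16 over wild type did not pass (adjusted p = 0.272). Pgm2 averaged 21.8 ± 2.1 CPM in compound mutants and 23.5 ± 0.6 in wild-type hearts. Older annotations exchange the symbols Pgm1 and Pgm2, so the gene IDs used were 72157 and 66681. Gpi1, the glucose-6-phosphate isomerase, averaged 749 ± 44 and 655 ± 43 CPM (0.19 ± 0.12, adjusted p = 0.576).

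Phosphofructokinase 1 commits sugar to glycolysis, and its subunits come from 3 genes named for liver (Pfkl), muscle (Pfkm) and platelet (Pfkp). Pfkl (gene ID 18641, chr10:77986947-78009807) had 619.9, 552, 513 and 583 CPM in compound mutants and 335, 470.1, 602.5 and 503 in Ing5-/- hearts, against 349, 353.5, 388 and 365 in Ing4+/- and 387, 426.5, 414 and 381 in wild-type hearts. Every compound mutant lay above every Ing4+/- and wild-type heart, while the Ing5-/- hearts reached from the bottom of the range to near its top. Pfkl rose by 0.64 ± 0.12 over Ing4+/- (adjusted p = 0.0104, 1.56-fold), a call kept on leaving out any 1 heart (adjusted p up to 0.0421). Over wild type its 0.50 ± 0.12 missed the threshold (adjusted p = 0.0535).

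Pfkp differed by 0.45 ± 0.14 from wild type and by 0.59 ± 0.14 from Ing4+/- (adjusted p = 0.199 and 0.058). Pfkm, at 129 ± 9 CPM in compound mutants and 117 ± 5 in wild-type hearts, differed by 0.15 ± 0.09 and 0.07 ± 0.09. The 4 Pfkfb genes encode phosphofructokinase 2, which makes the fructose-2,6-bisphosphate that activates the step. Pfkfb3, the form with the strongest kinase activity, had 35, 39.2, 47.9 and 43.2 CPM in compound mutants and 41.3, 32.7, 45.5 and 38.3 in Ing5-/- hearts, against 32.6, 31.2, 31.3 and 29.6 in Ing4+/- and 33.2, 28.6, 37.8 and 29.7 in wild-type hearts. The Ing4+/- hearts lay below every heart without Ing5, and the wild-type hearts overlapped them (0.35 ± 0.11 over wild type, adjusted p = 0.18). Pfkfb1, Pfkfb2 and Pfkfb4 averaged 8.34, 20.6 and 9.95 CPM in compound mutants and 7.28, 15.7 and 5.89 in wild-type hearts, and none was called.

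Aldolase splits the 6-carbon sugar. Aldoa, the muscle and embryonic form, had 2149, 1963, 1875 and 2081 CPM in compound mutants and 1114, 1621, 2153 and 1669 in Ing5-/- hearts, against 1398, 1393, 1454 and 1345 in Ing4+/- and 1437, 1686, 1612 and 1428 in wild-type hearts. The compound mutants stood above both groups that keep Ing5, and the Ing5-/- hearts held both the lowest and the highest value of all 16. Its difference missed the threshold over wild type (0.39 ± 0.13, adjusted p = 0.214) and narrowly over Ing4+/- (0.53 ± 0.13, adjusted p = 0.0511).

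Aldoc (gene ID 11676, chr11:78323073-78327781), the form of brain, was expressed at far lower levels and moved most of all members called. It had 17.4, 22.2, 12.3 and 17.3 CPM in compound mutants and 10.1, 10.4, 17.3 and 9.33 in Ing5-/- hearts, against 8.01, 8.68, 6.62 and 7.49 in Ing4+/- and 8.86, 7.83, 6.83 and 6.52 in wild-type hearts. All 8 hearts without Ing5 lay above all 8 with it. Aldoc rose by 1.20 ± 0.19 over wild type (adjusted p = 0.00403, 2.3-fold) and by 1.17 ± 0.19 over Ing4+/- (adjusted p = 0.0036). Both calls were kept on leaving out any 1 heart, with an adjusted p of at most 0.0269 and 0.0207. Even so it made up 0.911% of the aldolase step in compound mutants and 0.523% in wild-type hearts.

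Triosephosphate isomerase and glyceraldehyde-3-phosphate dehydrogenase are each represented by 1 gene here. Tpi1 (gene ID 21991, chr6:124810586-124814158) had 1567, 1303, 1259 and 1472 CPM in compound mutants and 883, 1215, 1571 and 1120 in Ing5-/- hearts, against 919, 927, 993 and 985 in Ing4+/- and 1006, 1131, 1067 and 987 in wild-type hearts. Gapdh (gene ID 14433, chr6:125161852-125166467) had 95.1, 91.4, 87.2 and 86.6 CPM in compound mutants and 70.9, 74.6, 92.5 and 71.1 in Ing5-/- hearts, against 67.6, 64.6, 75.5 and 61 in Ing4+/- and 67.2, 71.6, 79 and 66.5 in wild-type hearts. In both genes the 4 compound mutants cleared both groups with Ing5, and in both Ing5-/- 3 was the only Ing5-/- heart to reach the compound mutants. Over Ing4+/-, Tpi1 rose by 0.55 ± 0.12 and Gapdh by 0.42 ± 0.09 (adjusted p = 0.0285 and 0.0192). Over wild type, Tpi1 differed by 0.42 ± 0.12 and Gapdh by 0.34 ± 0.09 (adjusted p = 0.135 and 0.074). The Tpi1 call was lost without compound mutant 1, 2 or 4 or any Ing4+/- heart (up to 0.0952), and the Gapdh call without compound mutant 1 or 2 or Ing4+/- 1, 2 or 4 (up to 0.0729). Gapdh is often used as a standard taken to be constant.

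Phosphoglycerate kinase makes the first ATP of the pathway. Pgk1 (gene ID 18655, chrX:106187100-106203699) had 239.9, 245, 201 and 242 CPM in compound mutants and 169, 219, 232 and 193 in Ing5-/- hearts, against 161, 181, 153.5 and 171 in Ing4+/- and 177, 175, 124.5 and 154 in wild-type hearts. The compound mutants did not overlap the groups with Ing5, and 3 of 4 Ing5-/- hearts lay above all of those as well. Pgk1 rose by 0.56 ± 0.11 over wild type (adjusted p = 0.0183, 1.47-fold) and by 0.48 ± 0.11 over Ing4+/- (adjusted p = 0.0356). The call over wild type was lost without compound mutant 2 or 4 or wild type 3 or 4 (up to 0.0822), and the call over Ing4+/- without compound mutant 1, 2 or 4, any Ing4+/- heart or wild type 4 (up to 0.114). Bpgm, which makes the 2,3-bisphosphoglycerate of red blood cells, averaged 60.9 ± 20.1 and 51.2 ± 3.2 CPM (0.25 ± 0.34).

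Phosphoglycerate mutase is built from Pgam1, the brain-type form, and Pgam2, the muscle-type form. Pgam1 had 602, 488, 491 and 611 CPM in compound mutants and 411, 533, 601 and 525 in Ing5-/- hearts, against 472, 481, 459 and 502 in Ing4+/- and 477, 487, 429 and 459.7 in wild-type hearts. The lowest compound mutant and the highest wild-type heart were all but equal, and 0.24 ± 0.10 did not pass (adjusted p = 0.347). Pgam2 averaged 194 ± 26 CPM in compound mutants and 214 ± 18 in wild-type hearts, a log2 difference of -0.15 ± 0.10.

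Enolase has a ubiquitous form (Eno1), a neuronal form (Eno2) and a muscle form (Eno3). Eno2 (gene ID 13807, chr6:124760053-124769673) had 8.2, 9.84, 7.51 and 7.64 CPM in compound mutants and 8.49, 6.41, 6.58 and 5.88 in Ing5-/- hearts, against 5.15, 5.42, 6.33 and 4.01 in Ing4+/- and 3.62, 4.45, 5.04 and 5.19 in wild-type hearts. The compound mutants lay above all hearts with Ing5. Eno2 rose by 0.86 ± 0.17 over wild type (adjusted p = 0.0229, 1.81-fold), a call lost without compound mutant 2 or any wild-type heart (up to 0.1). Over Ing4+/- its 0.66 ± 0.17 did not pass (adjusted p = 0.0656).

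Eno1 had 417, 344, 350.5 and 389 CPM in compound mutants and 302, 373, 464 and 389 in Ing5-/- hearts, against 317, 344, 314 and 268.5 in Ing4+/- and 330.1, 374, 289 and 286 in wild-type hearts. These ranges overlapped (0.23 ± 0.11 over wild type, adjusted p = 0.468), and Eno3 averaged 244 ± 29 and 222 ± 14 CPM. Tpi1, Gapdh, Eno2 and Slc2a3 lie 225.7, 112.6, 270.2 and 2237 kb from Ing4 on chromosome 6, and other members on it lie further away. The part of that position in their values was not tested.

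Pyruvate kinase ends glycolysis, and Pkm encodes its muscle and embryonic isoforms, which gene counts do not separate. Pkm (gene ID 18746, chr9:59656576-59679372) had 2217, 1989, 1935 and 2186 CPM in compound mutants and 1277, 1734, 2231 and 1702 in Ing5-/- hearts, against 1421, 1421, 1457 and 1423 in Ing4+/- and 1499, 1650, 1554 and 1514 in wild-type hearts. The compound mutants stood above both groups with Ing5. Pkm rose by 0.54 ± 0.11 over Ing4+/- (adjusted p = 0.0228), a call lost without compound mutant 1 or 4 or Ing4+/- 1, 2 or 4 (up to 0.0726). Over wild type it differed by 0.42 ± 0.11 (adjusted p = 0.101).

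**Figure D3:**
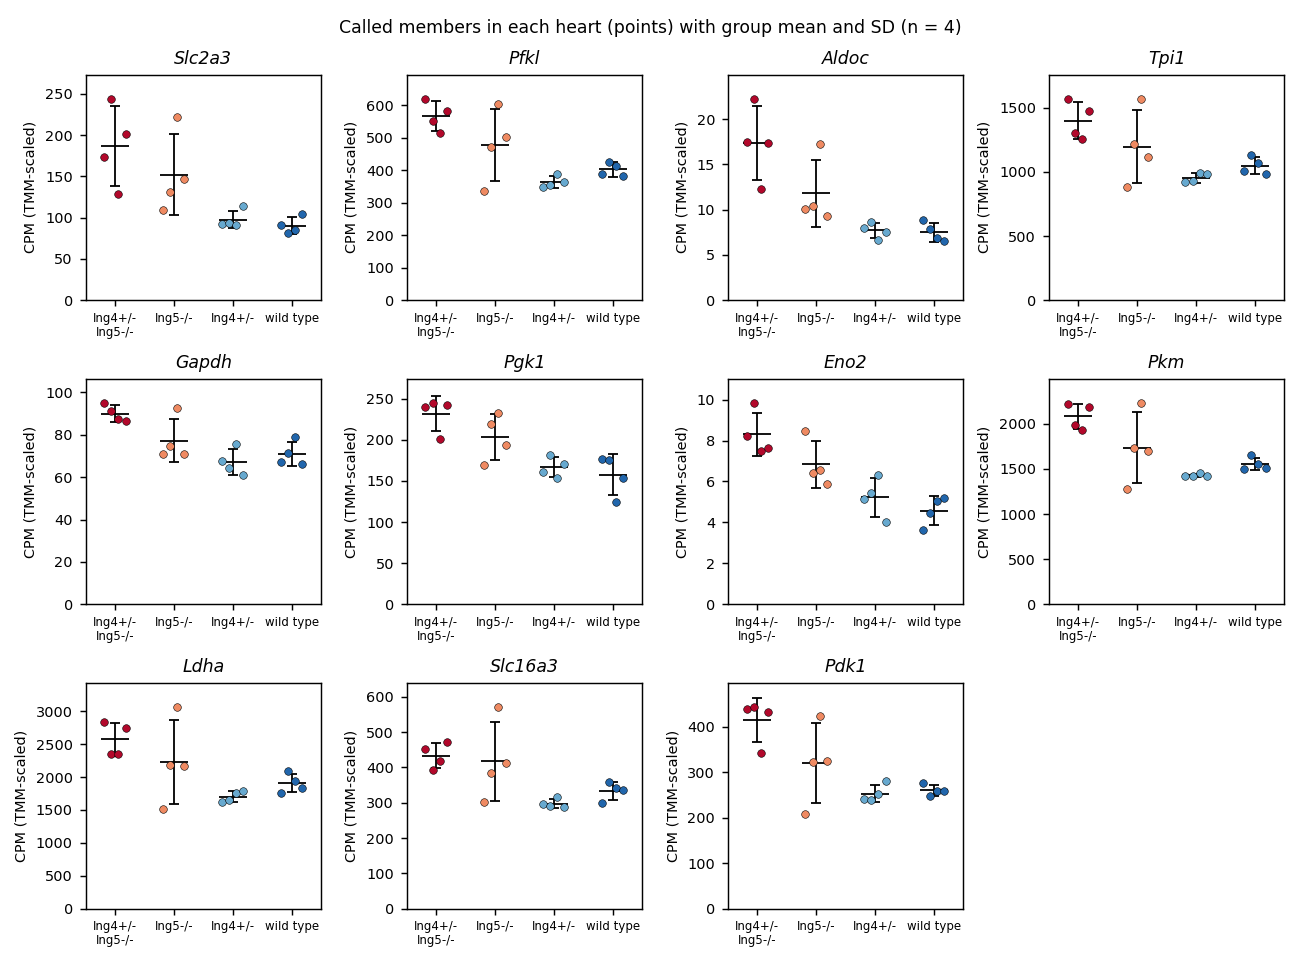
TMM-scaled CPM of the 11 members called in at least 1 pairwise comparison, 1 point per heart with the group mean and SD (n = 4), compound mutant, Ing5-/-, Ing4+/- and wild type from left to right, each axis from 0. In all 11 panels the compound mutants lie above all wild-type and all Ing4+/- hearts, while the Ing5-/- hearts were widely spread, for Ldha from 1510 CPM, below every other heart, to 3063 CPM, above every other heart.

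Lactate dehydrogenase combines A subunits (Ldha), which favour lactate, and B subunits (Ldhb), the form of adult heart. Ldha (gene ID 16828, chr7:46842274-46855627) had 2830, 2354, 2352 and 2750 CPM in compound mutants and 1510, 2182, 3063 and 2162 in Ing5-/- hearts, against 1619, 1649, 1760 and 1784 in Ing4+/- and 1762, 2092, 1938 and 1840 in wild-type hearts. The compound mutants lay above both groups with Ing5, and Ing5-/- 1 lay below them. Ldha rose by 0.59 ± 0.14 over Ing4+/- (adjusted p = 0.0459, 1.51-fold), but the call was lost without any heart but Ing5-/- 1, 3 or 4 (up to 0.135). Over wild type it differed by 0.43 ± 0.14 (adjusted p = 0.209). Ldhb averaged 158 ± 21 CPM in compound mutants and 172 ± 15 in wild-type hearts, a log2 difference of -0.12 ± 0.10 (adjusted p = 0.713). Of the printed promoters, that of Ldha held ACGTG at 5 positions and that of Ldhb held GCGTG.

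Lactate leaves through monocarboxylate transporters, MCT4 (Slc16a3), typical of cells that export lactate, and MCT1 (Slc16a1). Slc16a3 (gene ID 80879, chr11:120948484-120959000) had 452, 392, 417 and 473 CPM in compound mutants and 302, 385, 571 and 412 in Ing5-/- hearts, against 295, 289, 315 and 288 in Ing4+/- and 298, 359, 341 and 336 in wild-type hearts. The compound mutants cleared both groups with Ing5. Slc16a3 rose by 0.55 ± 0.13 over Ing4+/- (adjusted p = 0.0467), a call lost without any heart but Ing5-/- 1 or 3 (up to 0.145), and differed by 0.38 ± 0.13 from wild type (adjusted p = 0.231). Slc16a1 averaged 195 ± 19 CPM in compound mutants and 208 ± 11 in wild-type hearts (-0.09 ± 0.07, adjusted p = 0.708).

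Of the 4 pyruvate dehydrogenase kinases only Pdk1 (gene ID 228026, chr2:71873215-71903858), the form known to be raised by hypoxia, was called. It had 439, 443, 342 and 433 CPM in compound mutants and 209, 322.5, 424 and 325.5 in Ing5-/- hearts, against 241, 239, 251 and 280.5 in Ing4+/- and 275, 247, 258 and 259 in wild-type hearts. The compound mutants lay above both groups with Ing5, and the Ing5-/- hearts held the lowest value of all 16. Pdk1 rose by 0.67 ± 0.15 over wild type (adjusted p = 0.0363, 1.6-fold) and by 0.71 ± 0.15 over Ing4+/- (adjusted p = 0.0234). The call over wild type was lost without compound mutant 1, 2 or 4, Ing4+/- 1, 2 or 3, Ing5-/- 2 or any wild-type heart (up to 0.145), and that over Ing4+/- without compound mutant 1, 2 or 4 or any Ing4+/- heart (up to 0.09). The printed Pdk1 window held GCGTG and no ACGTG.

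Pdk3 had 195, 168, 187 and 185 CPM in compound mutants and 128, 181, 189.7 and 181 in Ing5-/- hearts, against 182, 176, 195 and 205 in Ing4+/- and 186, 201, 214 and 202 in wild-type hearts. It overlapped between compound mutant and wild type (-0.13 ± 0.10, adjusted p = 0.663). Pdk2 averaged 35.5 ± 3.7 and 36.4 ± 1.9 CPM and Pdk4, the form of fasting, 29.8 ± 1.8 and 24.5 ± 1.7 in compound mutants and wild-type hearts, and neither was called.

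Pyruvate dehydrogenase E1 is made of the alpha subunit Pdha1 and the beta subunit Pdhb. Pdha1 had 349, 315, 331 and 321.5 CPM in compound mutants and 217, 333, 325 and 320.0 in Ing5-/- hearts, against 339.9, 332, 344 and 358 in Ing4+/- and 351, 362, 355 and 363 in wild-type hearts. Every heart without Ing5 lay below every wild-type heart, by a log2 difference of -0.12 ± 0.10 for compound mutants and -0.26 ± 0.10 for Ing5-/- (adjusted p = 0.687 and 0.439). Pdhb had 244, 204, 222.5 and 228 CPM in compound mutants and 175, 237, 214 and 217 in Ing5-/- hearts, against 238, 236, 227 and 245.5 in Ing4+/- and 241, 253, 220.5 and 237.5 in wild-type hearts (-0.08 ± 0.08 over wild type).

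Isoforms were compared within a step by the share of its leading member in the counts per kb of the step, which does not depend on library size. Shares were tested with a two-sided exact permutation test over hearts, and p-values were adjusted over the 12 steps. In compound mutants against wild type, 8 of 12 leading members changed their share, each at an adjusted p of 0.0429 and at the smallest p that 4 against 4 hearts allow (0.0286). Had 1 step alone reached that p, its adjusted p would have been 0.343. The 8 steps thus passed only together, and none could have passed by itself. Pyruvate dehydrogenase kinase shifted most. Pdk3 made up 46.9, 42.6, 51 and 46.4% of it in compound mutants and 52.3, 51.9, 48.5 and 51.2% in Ing5-/- hearts, against 56.4, 55.4, 57 and 56.7% in Ing4+/- and 55, 58.3, 59 and 58.3% in wild-type hearts. All 8 hearts without Ing5 lay below all 8 with it, while Pdk1 made up 40.9 ± 3.2% in compound mutants, 36.8% in Ing5-/-, 29.3% in Ing4+/- and 29.0% in wild-type hearts. The order of the 2 kinases did not turn in the group means, with Pdk3 ahead in each, though Pdk1 led Pdk3 in compound mutant 2 (43.8 against 42.6%).

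Slc16a3 made up 79.2 ± 0.7% of lactate transport in compound mutants and 77.4 ± 3.9% in Ing5-/-, against 70.2 ± 1.5% in Ing4+/- and 73.3 ± 1.9% in wild-type hearts. Ldha made up 91.5 ± 1.3% of lactate dehydrogenase in compound mutants and 90.4 ± 2.2% in Ing5-/-, against 88.0 ± 1.1% in Ing4+/- and 88.1 ± 0.3% in wild-type hearts. The compound mutant shares thus lay above wild type by 5.9 points for Slc16a3 and 3.4 points for Ldha. Pgam1 gained 6.64 points (58.3% in compound mutants, 51.7% in wild-type hearts) and Pgm1 2.13 points (94.9 and 92.7%). The leading member lost share in 3 further steps, by -3.8 points for Hk1, -3.37 for Slc2a1 and -0.389 for Aldoa, and Hk2 (17.7% in compound mutants, 14.0% in wild-type hearts), Slc2a3 and Aldoc gained. Pfkl, at 56.7% in compound mutants and 53.9% in wild-type hearts, missed the threshold (exact p = 0.0571, adjusted 0.0762). The shares of Eno1, Pfkfb3 and Pdhb did not pass either. Without any 1 of the 4 wild-type hearts none of the 8 passed (adjusted p up to 0.0857), and without compound mutant 2 the Aldoa share alone was lost. With a heart left out the groups still did not overlap, but the exact p then takes only a few coarse values. The loss thus reflects the resolution of the test. The Pdk3 difference ran from -12.3 to -9.53 points on leaving out any 1 heart. The E1 subunits are parts of 1 enzyme and not isoforms, and their balance of 55.9% Pdhb in compound mutants and 55.3% in wild-type hearts differed by 0.671 points.

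**Figure D4:**
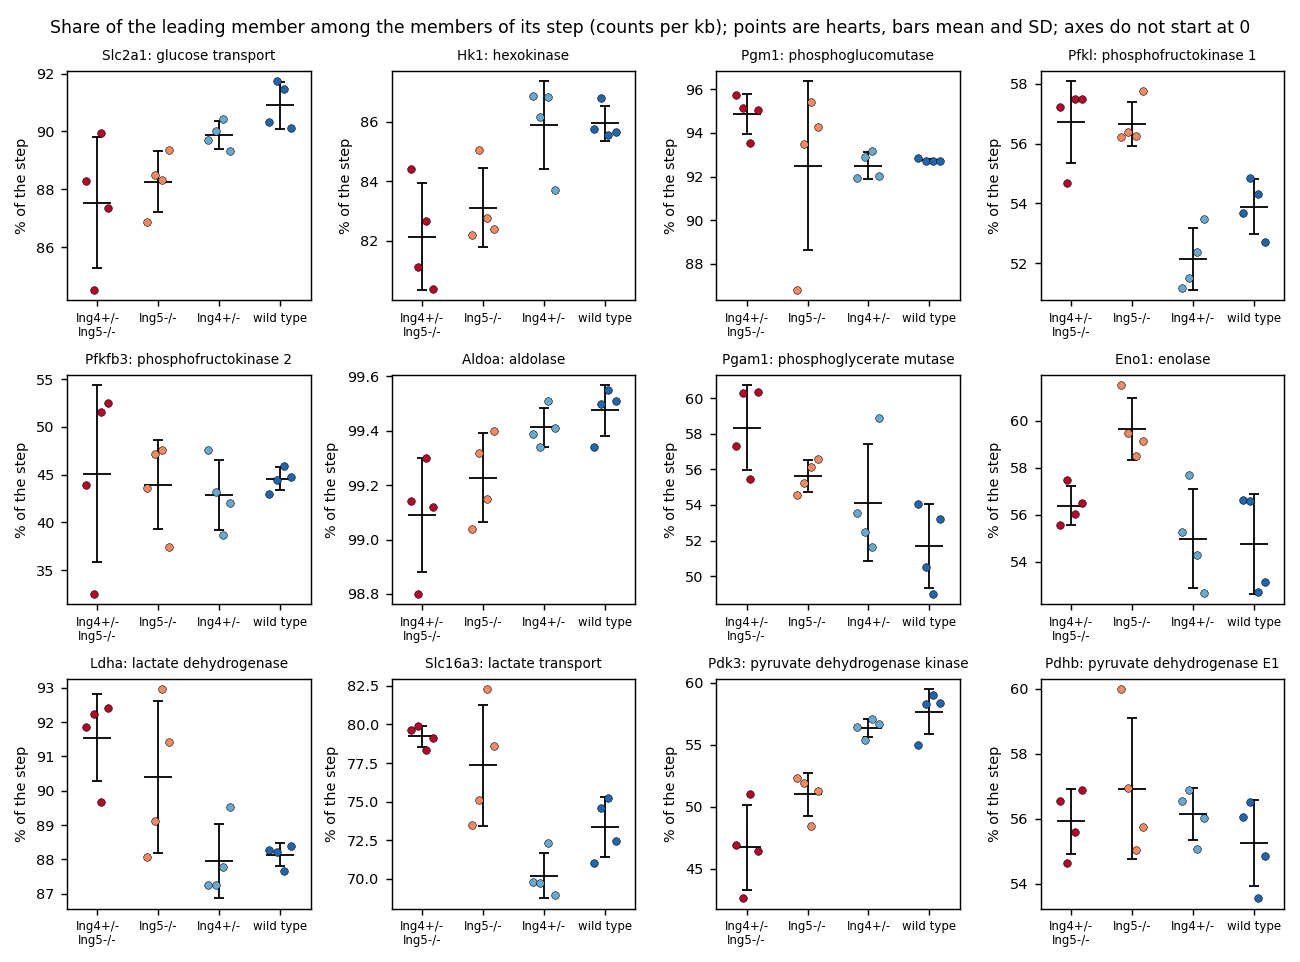
Share of the leading member in the counts per kb of its step, in percent, for the 12 steps with several members, 1 point per heart with group mean and SD (n = 4), compound mutant, Ing5-/-, Ing4+/- and wild type from left to right; axes do not start at 0. Pdk3 is the step with the clearest split, with all hearts without Ing5 (42.6 to 52.3%) below all hearts with it (55 to 59%).

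Set against both groups with Ing5 at once, hearts without Ing5 differed in 9 of 12 shares (two-sided exact permutation within Ing4 genotype, adjusted p = 0.00245 to 0.00871). Neither share test takes account of litter, and no litter held both an Ing5-/- and a wild-type heart. The differences were -8.15 points for Pdk3, 6.52 for Slc16a3, 4.06 for Pgam1, 3.67 for Pfkl, -3.29 for Hk1, 3.15 for Eno1, 2.91 for Ldha, -2.49 for Slc2a1 and -0.287 for Aldoa. Pfkl and Pdk3 reached the smallest p that this design allows (0.000408). Pgm1, which passed in the compound mutant, did not pass here (1.06 points, adjusted p = 0.402). Eno1 made up 59.7% of enolase in Ing5-/- hearts, above the 56.4% of compound mutants, 55.0% of Ing4+/- and 54.8% of wild-type hearts.

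Without Ing5 but with both Ing4 alleles, no member was called against wild type (0.0127% of all genes called higher, 0% lower). DESeq2 and limma-voom also called none, and the lowest adjusted p was 0.349. At an unadjusted p under 0.05, 9 members were higher and 4 lower, against 6.09 and 3.5% of all genes, and the median log2 difference of the members was 0.17, with 26 of 38 above 0 (53.2% of all genes). That median was 0.28 without Ing5-/- 1, 0.03 without Ing5-/- 3 and 0.01 with litter as a block, and 21, 8 and 5 members had an unadjusted p under 0.05 in these fits. Aldoc (0.65 ± 0.19), Slc2a3 (0.75 ± 0.21) and Eno2 (0.58 ± 0.17) lay above all wild-type values in every Ing5-/- heart, a pattern that 2.48% of all genes showed, and Pdha1 below them (2.26%). Ing5-/- 1 was the lowest heart of its group in 27 members and Ing5-/- 3 the highest in 25, and a lack of calls does not show that the levels were alike.

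Differences between Ing4+/- and wild-type hearts were small in the fit of all 16 hearts. No member was called between them (0% of all genes in either direction by edgeR), none had an unadjusted p under 0.05 (2.55% of all genes higher and 2.18% lower), and DESeq2 and limma-voom called none. In an edgeR fit of these groups alone, 7 of 37 members tested had an unadjusted p under 0.05. None was called there (2 of 15083 genes were). A lack of calls does not show that the levels were alike. The members' median was -0.05, with 13 of 38 above 0 against 51.6% of all genes. Pkm was the 1 member whose Ing4+/- hearts all lay below wild type (-0.12 ± 0.11), a pattern of 2.04% of all genes.

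Between compound mutant and Ing5-/- hearts, which differ by 1 Ing4 allele, no member was called by edgeR, DESeq2 or limma-voom (0.00634% of all genes higher by edgeR). The log2 difference was above 0 for 33 of 38 members, against 48.9% of all genes, with a median of 0.20, and 9 members were higher at an unadjusted p under 0.05 and none lower (2.68 and 3.95% of all genes). In Pfkm alone the groups did not overlap (1.36% of all genes). The median was 0.10 and 4 members had such a p without Ing5-/- 1, 0.26 and 20 without Ing5-/- 3, and 0.08 and 1 without the 3 libraries named as standing apart. The interaction, which asks whether losing Ing5 does more when 1 Ing4 allele is missing, had no called member by any of the 3 tools and a lowest adjusted p of 0.842. It was above 0 for 33 of 38 members, against 48.4% of all genes, and its median was 0.20. At an unadjusted p under 0.05, 4 members were above 0 and none below (2.45 and 3.43% of all genes). The median of the interaction was 0.09 without Ing5-/- 1 and 0.11 without the 3 libraries, and 14 members had such a p without Ing5-/- 3. These comparisons share hearts with those above, so their signs are not independent of them.

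Averaged over both Ing4 genotypes, 12 members rose in hearts without Ing5 and none fell (1.36% of all genes called higher, 0.773% lower). The median was 0.29, with 28 of 38 above 0 (51.9% of all genes), and at an unadjusted p under 0.05, 22 were higher and 4 lower (9.43 and 7.44% of all genes). These were the 11 named above and Pfkfb3 (0.35 ± 0.08, adjusted p = 0.023). Aldoc rose by 0.91 ± 0.14 (adjusted p = 0.000988), Slc2a3 by 0.84 ± 0.15 (adjusted p = 0.00891) and Eno2 by 0.62 ± 0.12 (adjusted p = 0.00896). Pdk1, Pfkl, Slc16a3, Pgk1, Ldha, Tpi1, Pkm and Gapdh rose by 0.27 to 0.51. The calls of 7 of the 12 were kept without any 1 heart. Ldha lost its call without compound mutant 1, 2 or 4 or any Ing4+/- or wild-type heart (up to 0.0802), and Tpi1 without compound mutant 1 or 4, Ing4+/- 1 or 2 or wild type 1, 3 or 4 (up to 0.0646). Pkm lost it without compound mutant 1, Ing4+/- 1 or 2 or wild type 1, 3 or 4 (up to 0.0598), Gapdh without compound mutant 1, Ing4+/- 2 or wild type 1 or 4 (up to 0.0601), and Pfkfb3 without compound mutant 3 or wild type 2 or 4 (up to 0.0579). With litter as a block, no member was called (Aldoc at an adjusted p of 0.0837).

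Litters 4 and 6 each held a compound mutant and a wild-type heart, which gives the contrast within a litter, with 1 heart a side and no test. The median over the 38 members of the difference in log2(CPM + 0.5) was 0.41 in litter 4 and 0.27 in litter 6, with 30 and 31 members above 0. Aldoc differed by 1.28 and 0.87, Slc2a3 by 1.42 and 0.31, Eno2 by 1.33 and 0.49, Pdk1 by 0.68 and 0.40 and Pgk1 by 0.47 and 0.38. Against Ing4+/- littermates, in litters 4, 6 and 7, the medians were 0.46, 0.16 and 0.46. All 11 called members were higher in each of the 3 litters, and Pfkl, for example, differed by 0.64, 0.40 and 0.68. In these 11 every compound mutant lay above every wild-type and Ing4+/- heart, so the sign within a litter was fixed beforehand. Only the sizes add to the group comparison. Litter 4 rests on compound mutant 2 and litter 7 on Ing4+/- 4, both named above as standing apart. Between Ing4+/- and wild-type littermates the medians were -0.04 and 0.02.

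**Figure D5:**
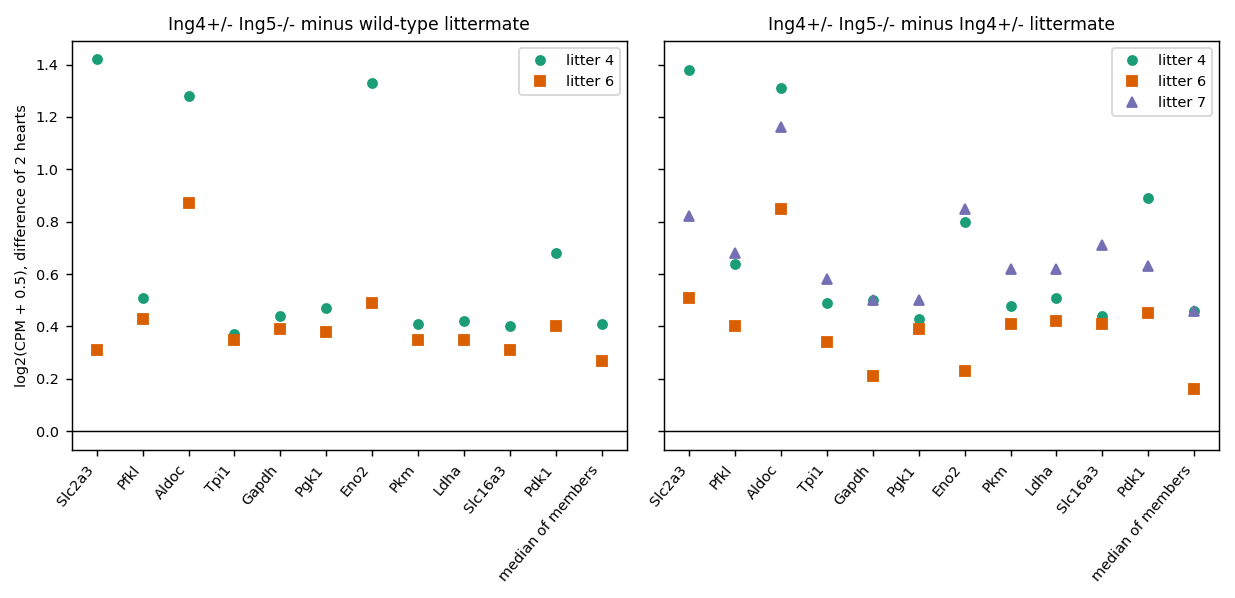
Difference in log2(CPM + 0.5) between a compound mutant heart and a littermate, wild type on the left (litters 4 and 6) and Ing4+/- on the right (litters 4, 6 and 7), for the 11 members called in a pairwise comparison and for the median of all 38; 1 symbol is 1 pair of hearts. All symbols lie above 0, from 0.31 upward for the called members on the left, and litter 6 gives the smallest difference in most. For the called members the sign was fixed beforehand, since their compound mutant hearts overlap neither group with Ing5.

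Within these litters, the shares of Pdk3, Slc16a3, Ldha, Hk1, Pgam1, Pgm1, Slc2a1 and Aldoa differed between compound mutants and both kinds of littermate in the direction of the group means. Against wild type this direction was fixed beforehand, since these shares did not overlap between the groups. Against Ing4+/- it was open only for Hk1, Pgam1 and Slc2a1, whose shares overlapped. Pdk3 was lower by 12.4 and 7.32 points in compound mutants than in wild-type littermates of litters 4 and 6, and by 12.7, 6.01 and 10.3 points than in Ing4+/- littermates of litters 4, 6 and 7. Slc16a3 was higher by 8.82 and 5.91 points, and by 10.1, 6.03 and 10.1. Slc2a1 differed by -5.77 points in litter 4 and -0.168 in litter 6 from wild type. Eno1, higher in hearts without Ing5 on average, was 0.227 points lower in the compound mutant than in its Ing4+/- littermate of litter 4 (57.5 and 57.7%). In the single Ing5-/- and Ing4+/- pair, of litter 7, Pgam1 (56.6 and 58.9%) and Slc2a1 (89.4 and 89.3%) also went against the average difference. Pfkfb3, whose share did not pass, differed by -10.5 points from wild type in litter 4 and by 6.8 in litter 6, and Pdhb by -1.41 and 0.734.

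Macrophage markers also differed between compound mutants and hearts with Ing5, while the sums of red blood cell markers overlapped between all groups. Summed CPM of 11 macrophage markers was 41.5 to 64.2 in compound mutants and 19.1 to 56.2 in Ing5-/-, against 14.3 to 21.2 in Ing4+/- and 10.2 to 16.3 in wild-type hearts, and 8 of the 11 were called higher in compound mutants than in wild type, with none at 0. Within the Ing5-/- group, heart 3 had the lowest macrophage sum (19.1) and heart 1 the highest (56.2). With the macrophage sum as a covariate, a fit added after these values were seen, 14 members were called over wild type in place of 5, but Eno2, Pgk1, Gapdh and Pfkfb3 lost each of their calls. The sum did not overlap between compound mutants and either group with Ing5, so this fit cannot separate it from genotype. Summed CPM of 10 red blood cell markers was 7930 to 49600 in compound mutants, 5710 to 33900 in Ing5-/-, 4930 to 19900 in Ing4+/- and 9050 to 12000 in wild-type hearts, with none called. With the haemoglobin level as a covariate, Aldoc and Pgk1 remained called over wild type, and 9 members over Ing4+/-. Summed CPM of 7 epicardial markers was 290 to 384 in compound mutants, 296 to 1110 in Ing5-/-, 352 to 543 in Ing4+/- and 450 to 493 in wild-type hearts. The part of epicardial cells in the members' values was not tested.

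A wider list held other isoforms of these steps and pathways that branch from them. Of its 66 genes, 55 passed the filter, and in compound mutants against wild type 1 rose and 1 fell, with a median of -0.01. Galk1, which brings galactose into the pathway, averaged 131 ± 12 CPM in compound mutants and 82.4 ± 7.8 in wild-type hearts (0.66 ± 0.12, adjusted p = 0.0135). Ugp2, which makes the UDP-glucose for glycogen, averaged 251 ± 10 and 309 ± 15 (-0.30 ± 0.06, adjusted p = 0.022). Both also passed against Ing4+/- (0.84 and -0.33). So did Bsg, the chaperone of the lactate transporters, at 826 ± 33 CPM in compound mutants and 598 ± 23 in Ing4+/- hearts (0.47 ± 0.08, adjusted p = 0.00834), and Hkdc1, a minor hexokinase, at 1.73 ± 0.50 and 3.63 ± 0.62 (-1.07 ± 0.26, adjusted p = 0.0459).

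Averaged over both Ing4 genotypes, Tkt of the pentose phosphate pathway rose (0.26 ± 0.06, adjusted p = 0.0412) and Ppp1r3d, a glycogen-targeting phosphatase subunit, fell (-0.34 ± 0.08, adjusted p = 0.0303), beside Galk1, Bsg and Ugp2. None of the 55 was called in the 3 other pairwise comparisons. The lists ran from 12 further isoforms of the same steps (median 0.10 over wild type, 9 above 0), 9 pentose phosphate genes (0.01, 5 above 0), 19 genes of glycogen and galactose (-0.04, 7 above 0) and 7 of gluconeogenesis and glycerol phosphate (0.12, 4 above 0) to 8 of the pyruvate carrier and dehydrogenase complex (-0.09, none above 0).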

How the data were processed

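RNA from whole hearts was extracted with a Qiagen kit and made into TruSeq stranded libraries, per the labels' protocols. The authors deposited whole-number read counts per Entrez gene ID, made with bcl2fastq and featureCounts on mm10, per the submitters' processing notes. For the aligner, the annotation and tool versions, nothing is stated in the labels or notes. The 16 single-sample tables equal the series table, and 93% of gene IDs matched a symbol.

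Counts were filtered with filterByExpr, scaled by TMM and fitted in edgeR 4.0.16 (R 4.3.3) by its quasi-likelihood test with robust dispersions, 1 mean per genotype and no covariate; all adjusted p-values of fold changes come from it, by Benjamini-Hochberg over 15785 genes. Values after ± are SE for log2 fold changes and SD (n = 4) for levels. CPM per kb uses the deposited gene length. DESeq2 1.42.0 and limma-voom 3.58.1 were alternatives. The fit was checked on counts simulated for all 16 libraries, with changes in the compound mutant alone (15616 genes tested). Over wild type it recovered 29 of 67 genes changed by 1.5-fold, 60 of 67 by 2-fold and 66 of 66 by 3-fold. It called 6 of 15416 unchanged genes. The simulation gave every gene and heart 1 spread (biological coefficient of variation 0.159) and no litter effect. Real hearts differed in spread between groups, so these rates need not hold for the data. The 38 members and the wider list were chosen with earlier results of these data known. Values per heart are given for each member called in a pairwise comparison and for the leading member of each step with several; Pdha1 was added after its values were seen. Of the wider list only called genes are named. Hearts are separate embryos as far as the labels say.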

Additional observations from a re-analysis of the deposited data

Results flagged for a closer look

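In 11 of 128 groups of 4 hearts, 1 heart lay far from the other 3, where chance alone flags about 5% of groups. Among levels, Ing5-/- 3 was high for Aldoc at 17.29 CPM (others 9.33 to 10.4) and for Gapdh at 92.47 CPM (others 70.9 to 74.6). Ing5-/- 1 was low for Pdk3 at 127.8 CPM (others 181 to 189.7). Compound mutant 3 was low for Pdk1 at 341.8 CPM (others 433 to 443) and for Pgk1 at 201 CPM (others 239.9 to 245). Ing4+/- 3 was high for Pkm at 1457 CPM (others 1421 to 1423). Ing4+/- 4, a library named above as standing apart, was high for Slc2a3 at 113.8 CPM (others 90.7 to 93.6). Among shares, compound mutant 2 was low for Pfkl at 54.69% (others 57.2 to 57.5%) and Ing5-/- 4 high at 57.75% (others 56.2 to 56.4%). Wild type 2 was high for Hk1 at 86.82% (others 85.6 to 85.8%) and wild type 1 for Pgm1 at 92.83% (others 92.70 to 92.72%).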

How the results depend on the processing

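No value changed sign among the called results. The count of 5 members called over wild type came to 3 with no filter, 16 in a fit of only the groups compared and 9 with DESeq2. It came to 1 (Aldoc) with litter as a block, 2 with the haemoglobin level as a covariate and 13 without the 3 libraries named as standing apart. With the macrophage level as a covariate, which was added after seeing the data, it came to 14. That level did not overlap between compound mutants and wild type. The count of 10 over Ing4+/- came to 17 in a fit of only the groups compared, 17 with DESeq2 and 5 with litter as a block (Pfkl, Aldoc, Slc16a3, Slc2a3 and Gapdh). It came to 7 with a Y-linked covariate, which stands for sex, (Ldha, Slc16a3 and Slc2a3 lost) and to 7 with limma-voom (Ldha, Slc16a3 and Pgk1 lost). Over Ing5-/- it came to 3 with the macrophage covariate (Pfkl, Pdk1 and Pgm1). The count of 12 averaged over both Ing4 genotypes came to 0 with litter as a block and 19 without the 3 libraries. The cause of these differences was not tested. On leaving out 1 heart, the counts ran from 1 (without compound mutant 2 or wild type 3 or 4) to 16 (without Ing5-/- 1) over wild type, from 2 to 18 over Ing4+/- and from 7 to 20 averaged, the last highest again without Ing5-/- 1. Steps with a changed share over wild type ran from 0 (without any wild-type heart) to 8, in a test whose p takes only coarse values with so few hearts. Aldoc over wild type and Pfkl over Ing4+/- kept their calls in all 11 alternatives. With the replicate number as a block, 4, 10 and 12 members were called over wild type, over Ing4+/- and averaged. The numbers did not visibly pair the hearts: 7 of 24 same-numbered pairs of different genotypes had deviations correlated above 0.1. So had 3 of 11 pairs from the same litter and 19 of 67 pairs that shared neither number nor litter. With 4 hearts a group, the spread between hearts limits which differences pass.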
